A study of Mus musculus with 416 samples.

Results

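The timing of DNA replication was compared between control mouse embryos at the morula stage and at the 8-cell stage. Members were all cell columns of the control tables of these stages, 60 cells at the 8-cell stage and 44 at the morula stage, or 104 of the 299 cells in the series. The embryos had the genotype (C57BL/6J xCBA) x DBA/2J, and all of them, including those of the Rif1 knockdown arm, received siRNA as zygotes. Control zygotes were injected with siControl at 20 µM, 17 to 18 hours after hCG, and grown in KSOM; the other arm received an siRNA against Rif1 (siRif1) at the same concentration. Blastomeres were separated, and the genome of each was amplified with its own barcode. The labels list 72 cells for each of these control stages, and those without a column were not analysed here. Columns were thus present for 60 of 72 8-cell cells and for only 44 of 72 morula cells. The reason is not stated, and all comparisons are between the cells that were kept.

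A cell replicates its genome in a reproducible order during S phase. Gene-rich, open chromatin is generally copied early, and gene-poor chromatin at the nuclear lamina late. In mouse embryos this order is known to become better defined over the cleavage divisions, and Rif1 is a chromatin protein known for its part in timing control. The 8-cell embryo compacts on the way to the morula, whose outer and inner cells give rise to trophectoderm and inner cell mass.

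The value of a cell in each 50-kb bin is a state, read here as replicated or not. The replicated share of a bin is the percent of its measured cells that were replicated there; a high share means that the bin was copied early in S phase. Shares were centred on the mean of their group, and the change of a bin is its centred share at the morula stage minus that at the 8-cell stage, in percentage points. A positive change is called earlier at morula and a negative one later. Of 49264 autosomal bins, 46150 (93.7%) had at least 10 measured cells at both stages and were used. Each 8-cell cell was measured at 88.8 to 93.9% of bins and each morula cell at 88.1 to 93.8%. The read depth of a cell is unknown here. No embryo, litter or batch is named for a cell in the labels, so each stage counts as 1 sample and no test was made. Intervals given with a percent of cells are 95% Clopper-Pearson intervals (exact), and they cover counting error only.

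The cells of both stages were spread over S phase around the same middle. The percent of the genome replicated per cell had a lowest value of 9.61, a median of 48.3 and a highest of 97.3 at the 8-cell stage, with an SD of 18.5 over cells. At the morula stage it ran from 25.2 through a median of 47.5 to 81.8, with an SD of 13.9. The 8-cell group held 3 cells below 20% and 3 above 80%, against 0 and 2 at the morula stage. Where a bin contained a gene midpoint its mean share was 59.6%, against 44.7% for other bins, at the 8-cell stage, and 64.1% against 43.1% at the morula stage. The states were read as replicated or not by this difference, so its direction is not a result. No cell column was identical between the groups.

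Early and late regions lay farther apart at the morula stage, while their order was largely kept. Over bins, the replicated share had an SD of 19.8 points in 8-cell cells and 25.8 points in morula cells, a ratio of 1.30. Binomial counting gives an SD of 5.93 and 6.47 points by itself, and with this removed the values were 18.9 and 24.9 points. The spread was larger at morula on 19 of 19 autosomes, and the difference of 5.93 points had an SD of 1.36 over autosomes. The percent replicated also varied less over morula cells (SD 13.9 against 18.5). With 43 cells of each stage matched within 5 points of percent replicated, the SD over bins was 21.9 and 26.2 points. It was still larger at morula on 19 of 19 autosomes. Chromosome 16 had the greatest difference, from 19.9 to 29.7 points, and chromosome 18 the smallest, from 18.3 to 22.4 points.

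The middle of the distribution emptied towards both ends. Bins replicated in 20% of cells or fewer made up 9.88% of the genome at the 8-cell stage and 19.6% at the morula stage. Those replicated in 80% or more made up 4.18% and then 10.1%. Between 40 and 60% lay 32.4% of bins at the 8-cell stage and 20.2% at the morula stage. Bins with no replicated cell numbered 5 and 117. These counts depend on the cells sampled, since the most replicated cell was at 97.3% in the 8-cell group and at 81.8% in the morula group. No bin was replicated in every cell of either group.

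The order of bins was much the same at both stages. Across the 46150 bins the shares correlated with a Pearson r of 0.908 and a Spearman rho of 0.904; bins share cells and neighbours, so this is a description. When the bins of each stage were ranked into 3 equal parts, 77.7% stayed in the same part. Only 4 bins went from the earliest to the latest part and 24 from the latest to the earliest. Stretches of bins above or below the group mean numbered 1279 at the 8-cell stage, with a median length of 1100 kb, and 1095 at the morula stage, with a median of 1200 kb. The longest stretch was 14.7 Mb and then 16.8 Mb.

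A ranking from cells of neither stage gave the same direction. The bins were put into 5 equal classes by their centred share in the 49 control 4-cell cells. The latest class was replicated in 27.9% of 8-cell cells and 24.2% of morula cells, and the earliest class in 72.5% and 77.1%. From the latest to the earliest class the mean change was -3.92, -3.03, -0.0932, 2.70 and 4.31 points. The distance between the earliest and the latest class was thus 44.6 points at the 8-cell stage and 52.9 points at the morula stage, wider by 8.23 points (SD 3.46 over autosomes, wider on 19 of 19). With cells matched on percent replicated this distance was wider on 17 of 19 autosomes. Within a class the bins also differed more at morula, with an SD of 18.3 points in the latest class against 12.6 at the 8-cell stage, and 9.45 against 8.03 in the earliest. On percentile ranks, which fix the spread of both groups, the distance between these classes was smaller at morula by 4.90 rank points, so the widening was seen in shares and not in ranks.

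Part of the widening moved with a subset of 8-cell cells whose replicated bins did not follow the mean order of the other groups. Each cell was scored by its AUC, the chance that one of its replicated bins ranks above one of its unreplicated bins in the mean profile of the 4 other groups of the series. These groups were the control 4-cell cells and the siRif1 4-cell, 8-cell and morula cells, so most of this profile came from knockdown embryos. An AUC of 0.5 is no relation. The AUC ran from 0.448 through a median of 0.755 to 0.901 in 8-cell cells, and from 0.590 through 0.781 to 0.904 in morula cells. The upper ends were alike, and the groups differed at the lower end. An AUC under 0.6 was found in 10 of 60 8-cell cells (16.7%, interval 8.29 to 28.5%) and in 1 of 44 morula cells (2.27%, interval 0.0575 to 12.02%). Under 0.55 there were 5 and 0 cells, and under 0.65 there were 15 and 4.

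These cells were not at one end of S phase. The 10 8-cell cells were 28.5 to 88.9% replicated, and the 1 morula cell was 44.4% replicated. The lowest AUC, 0.448, belonged to an 8-cell cell that was 52.02% replicated, with 45.03% of the earliest class and 55.8% of the latest class in the replicated state. Changes of state between neighbouring bins had a median of 22.2 per 1000 bins in these 8-cell cells and 19.9 in the others. Without the cells of AUC under 0.6 the SD over bins came to 23.3 points for 8-cell cells and 26.2 for morula cells, a difference of 2.94 points that was still present on 19 of 19 autosomes. The widening between the classes was then 1.80 points and was present on 15 of 19. By title number, the 8-cell cells of AUC under 0.6 were 1, 2, 3, 7, 36, 48, 49, 50, 60 and 62. Several of these numbers are adjacent, and what the numbering stands for is not stated. Whether these cells reflect the state of the embryos or how the cells were measured or kept was not tested. Of the labelled cells, 60 of 72 were kept at the 8-cell stage and 44 of 72 at the morula stage.

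**Figure D1:**
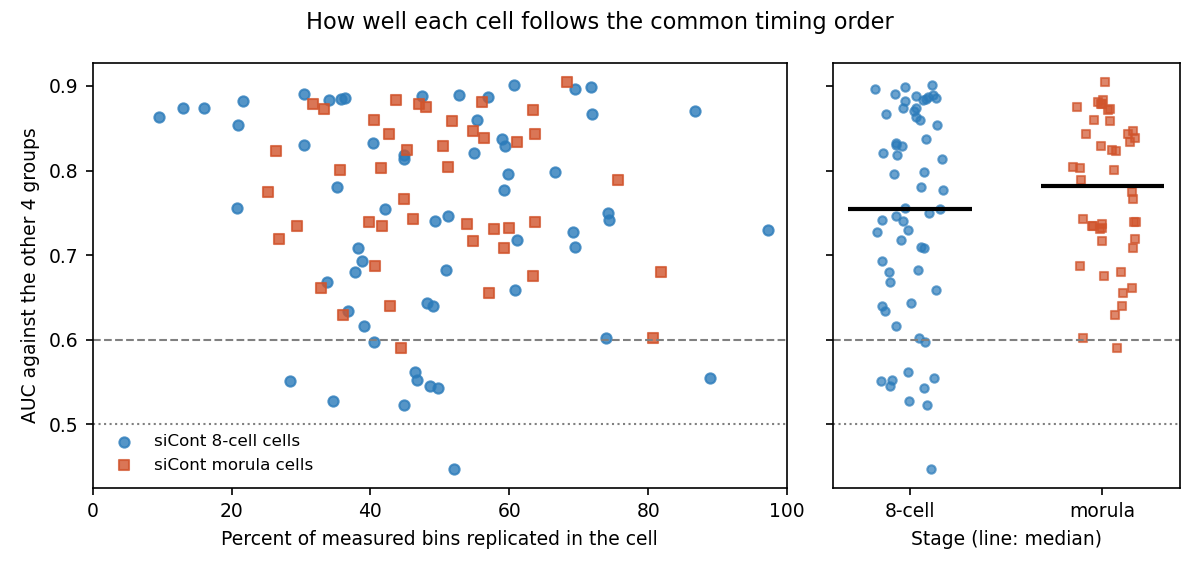
Left, AUC of each cell against the mean profile of the 4 other groups (y axis) by the percent of its measured bins that were replicated (x axis), for siCont 8-cell cells (blue circles) and morula cells (orange squares). Right, the same AUC by stage with a line at the median (0.755 and 0.781). The other groups are siCont 4-cell and siRif1 4-cell, 8-cell and morula cells. The dotted line marks no relation at 0.5 and the dashed line 0.6, below which lie 10 8-cell cells and 1 morula cell.

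Cells were also compared within ranges of percent replicated, in which the stages were close but not matched. The median 8-cell and morula cell were 34.7 and 32.3% replicated in the range of 20 to 40%, 49.3 and 47.5% in that of 40 to 60%, and 69.5 and 63.6% in that of 60 to 80%. Among 8-cell cells between 40 and 60% replicated, of which there were 25, the median cell had copied 76.0% of the earliest class and 28.1% of the latest class. The 24 morula cells in this range had copied 81.9% and 20.4%. Between 20 and 40% the medians of the latest class were 12.2% in 17 8-cell cells and 8.33% in 10 morula cells, while those of the earliest class were 62.3% and 61.5%. Between 60 and 80% they were 40.8% in 12 8-cell cells and 35.4% in 8 morula cells for the latest class, and 90% and 89.6% for the earliest. In all of these ranges the morula cells had copied less of the latest class, but their whole genome was also somewhat less replicated, and the part of this offset was not tested. The earliest class had the higher median at morula only in the middle range. The ranges of single cells overlapped in each case.

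Pairs of cells were also more alike at morula. For pairs within 5 points of each other, both cells between 20 and 80% replicated, the median Pearson correlation of states was 0.139 over 265 pairs of 8-cell cells and 0.265 over 181 pairs of morula cells. The difference of 0.126 had an SD of 0.0322 over autosomes and was positive on 19 of 19. Of the 8-cell pairs 10.2% had a correlation below 0, and the lowest morula pair was at 0.0266. In the range of 40 to 60% replicated the medians were 0.0672 and 0.301. Pairs share cells and are not replicates. Without the cells of AUC under 0.6 the medians were 0.230 and 0.287, a difference of 0.0571.

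The change differed more between classes of gene content than between the 4-cell timing classes. Timing classes ranked on other cells widened by more than the 4-cell ones, as given at the end. Bins were put into 5 equal classes by the number of protein-coding genes per Mb in their surroundings, a property that does not come from these cells. From the gene-poorest class, with 0.431 genes per Mb, to the densest, with 24.2, the mean change was -8.79, -3.70, 1.98, 4.25 and 6.27 points. The poorest class was later at morula on 19 of 19 autosomes and the densest was earlier on 18 of 19. The distance between both classes was wider by 15.1 points at morula, on 19 of 19 autosomes. Without the cells of AUC under 0.6 it was wider by 8.15 points, also on 19 of 19, and the outer classes were at -4.97 and 3.19 points. On percentile ranks the distance was wider by 4.92.

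**Figure D2:**
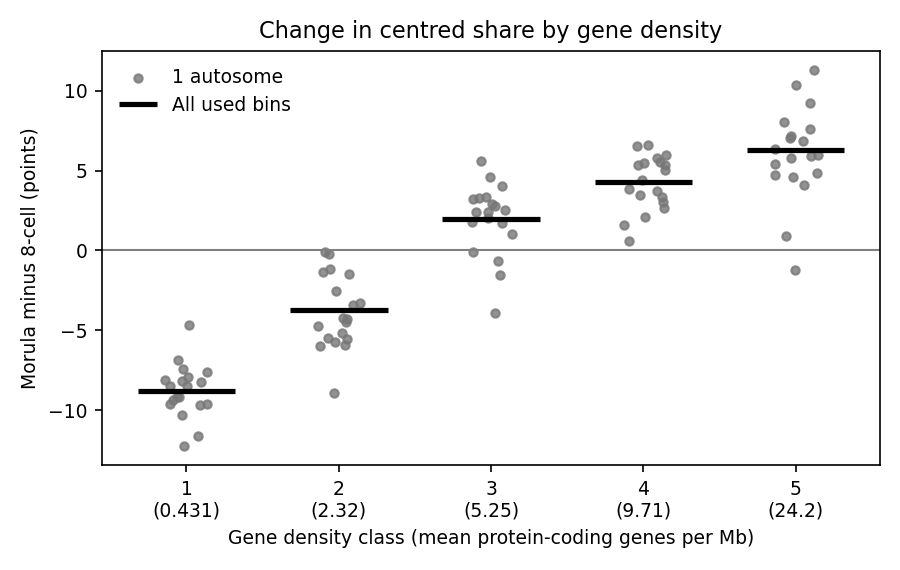
Mean change of centred share, morula minus 8-cell in percentage points (y axis), in 5 equal classes of bins by gene density (x axis, mean protein-coding genes per Mb in parentheses). Grey points are the 19 autosomes and black lines all used bins, which run from -8.79 points in the gene-poorest class to 6.27 in the densest.

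Within a 4-cell timing class, bins also differed by gene content. In the latest 4-cell class the gene-poorest bins had a mean share of 28.8% in 4-cell cells and the gene-densest 24.6%. At the 8-cell stage their centred shares were already apart, at -27.4 and -18.6 points, and at morula they were -36.4 and -13.9. The gene-poorest had a mean change of -8.94 points and were later on 19 of 19 autosomes. The gene-densest had a mean change of 4.67 points and were earlier on 13 of 19. Leaving out the cells of low AUC, the same values were -4.59 and 5.67 points, the latter positive on 16 autosomes. In the earliest 4-cell class the gene-densest bins were at 5.46 points, and at 1.11 without those cells. The 58 gene-poorest bins of the earliest class were at -1.43 points and at 0.981 without those cells.

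Single cells showed the gene-density contrast too. Its direction in the groups follows from how the states were read, while its size in a cell does not. In the 8-cell group the densest class was replicated at 62.7% and the poorest at 23.5% in the median cell, and the densest lay above the poorest in 52 of 60 cells. In the morula group these medians were 72.8% and 13.8%, and the densest lay above the poorest in 44 of 44 cells. Within a cell the median difference was 31.2 points in the 8-cell group and 49.3 in the morula group. Its range was -24.9 to 75.7 and 0.748 to 79.7, so that most cells of both stages overlapped.

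Changes at chromosome ends varied widely between autosomes. The 3 Mb of used bins next to the telomere moved from a centred share of -5.40 to -0.429, a change of 4.98 points (SD 8.22 over autosomes, positive on 16 of 19). The 3 Mb of used bins next to the centromere had a change of -0.674 points (SD 9.06, positive on 9 of 19). Both values, and the difference between them, are smaller than the spread between autosomes.

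Large changes of single bins were few. Of all bins, 170 (0.368%) were at least 30 points earlier at morula and 62 (0.134%) at least 30 points later. At 20 points or more there were 1732 (3.75%) earlier and 1547 (3.35%) later bins. The SD of the change over all bins was 11.3 points, against 8.78 points from counting alone. The 170 earlier bins formed 56 stretches on 15 autosomes and the 62 later bins 25 stretches on 15 autosomes. Centring each group on its median, under which the median change of all bins was -2.73 in place of -0.0452 points, gave 79 earlier and 185 later bins, so the balance between directions depends on the centring. Later bins numbered 105 with cells of both stages matched on percent replicated, and 22 with both groups scaled to the same SD.

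The earlier bins had gone from a mean share of 38.8% to 72.4%, and the later bins from 50.5% to 18.6%. In control 4-cell cells their mean shares were 39.96% and 42.6%, so both sets lay below the middle of S phase there. Around the earlier bins there were 9.22 genes per Mb and around the later bins 4.01, against 8.39 around all used bins. Of the earlier bins 55 lay in the latest and 13 in the earliest 4-cell class, and of the later bins 6 and 0. Without the cells of AUC under 0.6 the counts were 173 and 48.

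The same stages of the siRif1 arm, which share no cell with the controls, gave a partly similar picture. Of the 170 earlier bins 153 were also earlier at morula under siRif1, with a mean change of 14.6 points, where 46.97% of all bins had that sign. Of the 62 later bins 52 were also later, with a mean change of -11.3 points, where 53.03% of all bins had that sign. Over 46069 bins measured in all of these groups, the changes of both arms correlated with an r of 0.438, a description over bins that share neighbours. The distance between the earliest and latest 4-cell class under siRif1 was 28.9 points at the 8-cell stage and 36.2 points at morula, wider by 7.30 points from a lower start. The SD over bins there was 14.7 and 17.3 points.

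Changes were next read over 1-Mb windows, of which 2326 had at least 10 used bins. A mean change of 20 points or more was found in 46 windows (1.98%) in the earlier direction and in 39 (1.68%) in the later one. Positions are on GRCm38. A window counts as replicated in a cell when over 50% of its measured bins were. The windows named here are the extremes by rule, so their changes are descriptions.

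The greatest change towards early lay on chromosome 3 from 137000001 to 138000000, a window with 7 protein-coding genes that include Emcn (an endothelial sialomucin), Dapp1 (a signalling adaptor) and Dnajb14 (a chaperone of the endoplasmic reticulum). It was replicated in 19 of 60 8-cell cells (31.7%, interval 20.3 to 44.96%) and in 29 of 44 morula cells (65.9%, interval 50.1 to 79.5%), with a mean change of 30.8 points. Among cells between 40 and 60% replicated these were 7 of 25 and 18 of 24. This window was the exception among the 12 named ones in that its change under siRif1 had the other sign, at -3.92 points.

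On chromosome 2 from 179000001 to 180000000, the window of Cdh4 (R-cadherin) and Taf4 (a subunit of the general transcription factor TFIID) was replicated in 18 of 60 and 26 of 44 cells, a change of 30.2 points. A second window of chromosome 2, from 93000001 to 94000000, holds Tspan18, Ext2 (a heparan sulfate polymerase subunit) and Prdm11 among 10 genes. It was replicated in 18 of 60 and 30 of 44 cells, a change of 29.5 points, and in 2 of 12 against 8 of 8 cells between 60 and 80% replicated. On chromosome 16 from 93000001 to 94000000, with Dop1b, Cldn14 (a tight junction claudin) and Morc3, the numbers were 23 of 60 and 27 of 42, a change of 29.5 points. All of these lay below the genome mean in 8-cell cells and above it at morula.

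The other 2 earlier windows are gene-dense. The window on chromosome 15 from 78000001 to 79000000, with 27 genes that include Cacng2, Triobp and Elfn2, was replicated in 18 of 60 and 27 of 44 cells, a change of 27.8 points. The window on chromosome 9 from 121000001 to 122000000, with 17 genes that include Ulk4, Trak1 and Lyzl4, was replicated in 27 of 60 and 33 of 44 cells, a change of 27.5 points. Under siRif1 they changed by 29.5 and 31.2 points.

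The greatest change towards late lay on chromosome 8 from 55000001 to 56000000, with Gpm6a (a neuronal membrane glycoprotein), Glra3 (a glycine receptor subunit) and Adam29 among 15 genes. It was replicated in 20 of 60 8-cell cells (33.3%, interval 21.7 to 46.7%) and in 1 of 44 morula cells (2.27%, interval 0.0575 to 12.02%), a change of -31.2 points. Only 10 of its bins were used, and the profile has a gap inside the window. The change under siRif1 was -20.3 points.

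A window with no protein-coding gene on chromosome 11, from 25000001 to 26000000, was replicated in 31 of 60 and 11 of 44 cells, a change of -27.0 points. Among cells between 40 and 60% replicated the numbers were 13 of 25 and 1 of 24. On chromosome 10 from 27000001 to 28000000 the window of Lama2, the laminin alpha chain of muscle, was replicated in 30 of 60 and 10 of 44 cells, a change of -25.3 points. On chromosome 14 from 23000001 to 24000000, the window of Lrmda and Kcnma1 (a calcium-activated potassium channel) was replicated in 42 of 60 and 17 of 44 cells, a change of -25.2 points. It was early at the 8-cell stage, with a centred share of 18.4, and below the mean at morula, with -6.72.

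The last later windows each lie at a single long gene. The window on chromosome 1 from 3000001 to 4000000, at Xkr4, was replicated in 22 of 60 and 5 of 44 cells, a change of -24.9 points. The window on chromosome 15 from 47000001 to 48000000, at Csmd3, was replicated in 20 of 60 and 7 of 44 cells, a change of -24.6 points. Without the cells of AUC under 0.6 all 12 named windows, picked as extremes in these same cells, kept their sign. They were at 22.3 to 29.8 points for the earlier and -17.2 to -27.1 points for the later ones.

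**Figure D3:**
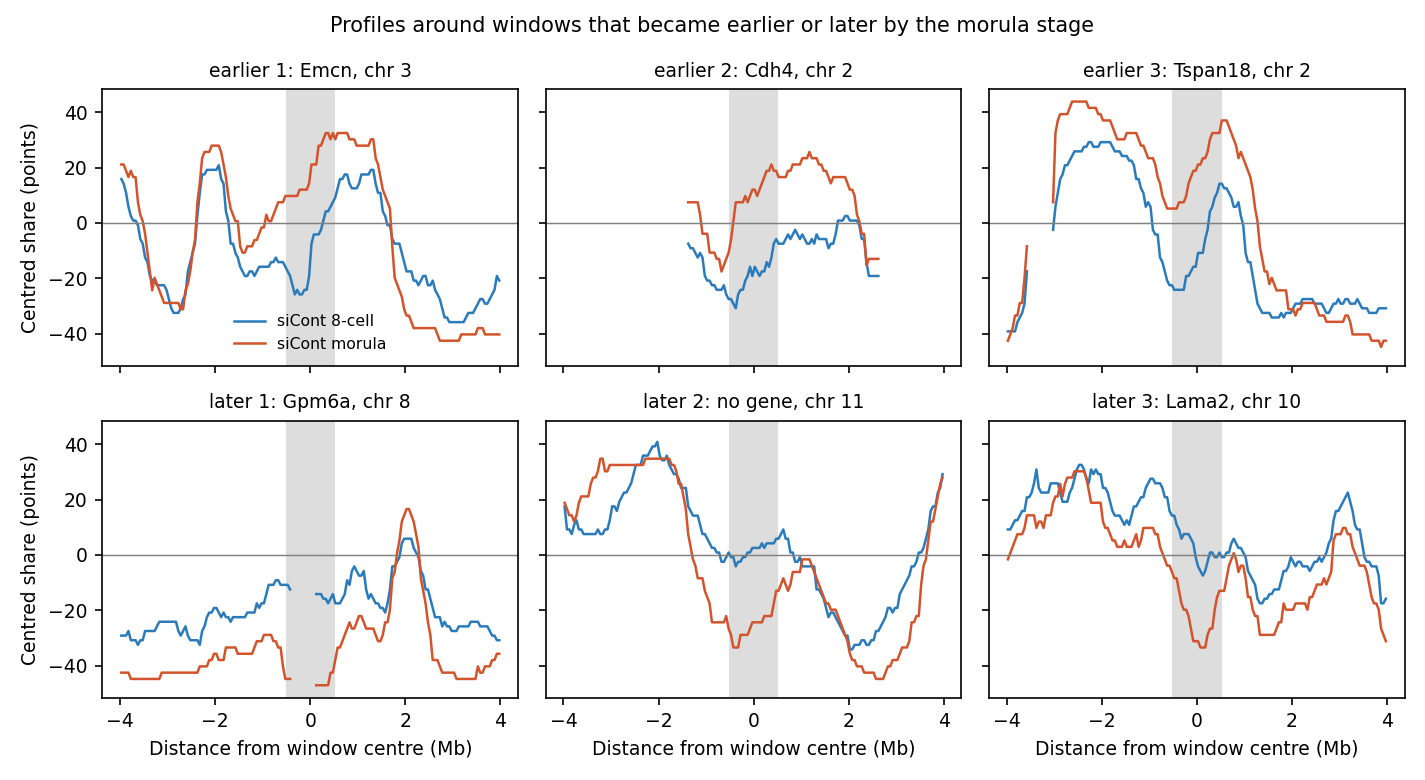
Centred replicated share in percentage points (y axis) by distance from the window centre in Mb (x axis) around 3 windows that were earlier and 3 that were later at morula, in siCont 8-cell cells (blue) and morula cells (orange); the 1-Mb window is grey and gaps are bins not used. The changes in the grey windows run from 30.8 points at Emcn to -31.2 points at Gpm6a.

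Protein-coding genes were read at the bin of their midpoint, and 19483 of 20665 autosomal genes had a used bin. Their median change was 5.26 points, and 13705 (70.3%) had a change above 0. This share was 60.2% on centring by the median, 56.9% on ranks and 60.03% without the cells of AUC under 0.6. A change of 20 points or more was found for 1127 genes (5.78%) in the earlier direction and 191 (0.98%) in the later one. Lists of genes are therefore set beside the median of 5.26 and not beside 0, and their counts above 0 beside 70.3%. Of the 44 genes picked by the naming rule, Rif1 included, 37 had the same sign of change under siRif1 and 7 the other. The 7 were Fgfr2 (-11.8 points under siRif1), Nlrp14 (-1.74), Copg2 (-11.8), Ebf1 (15.8), H1f6 (-9.62), Hoxd10 (1.05) and Olfr412 (-1.83). The share of all genes with the same sign in both arms was not computed, so these counts have no background beside them. Most list medians were above 0 under siRif1 too, also without a value over all genes beside them. Those below 0 were Hox (-10.95), histone (-5.84), long neuronal and fragile-site (-4.51) and olfactory receptor genes (-1.83). Of these, only the long neuronal and fragile-site genes were below 0 in controls. The protocadherin median, below 0 in controls, was 4.38 under siRif1.

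**Figure D4:**
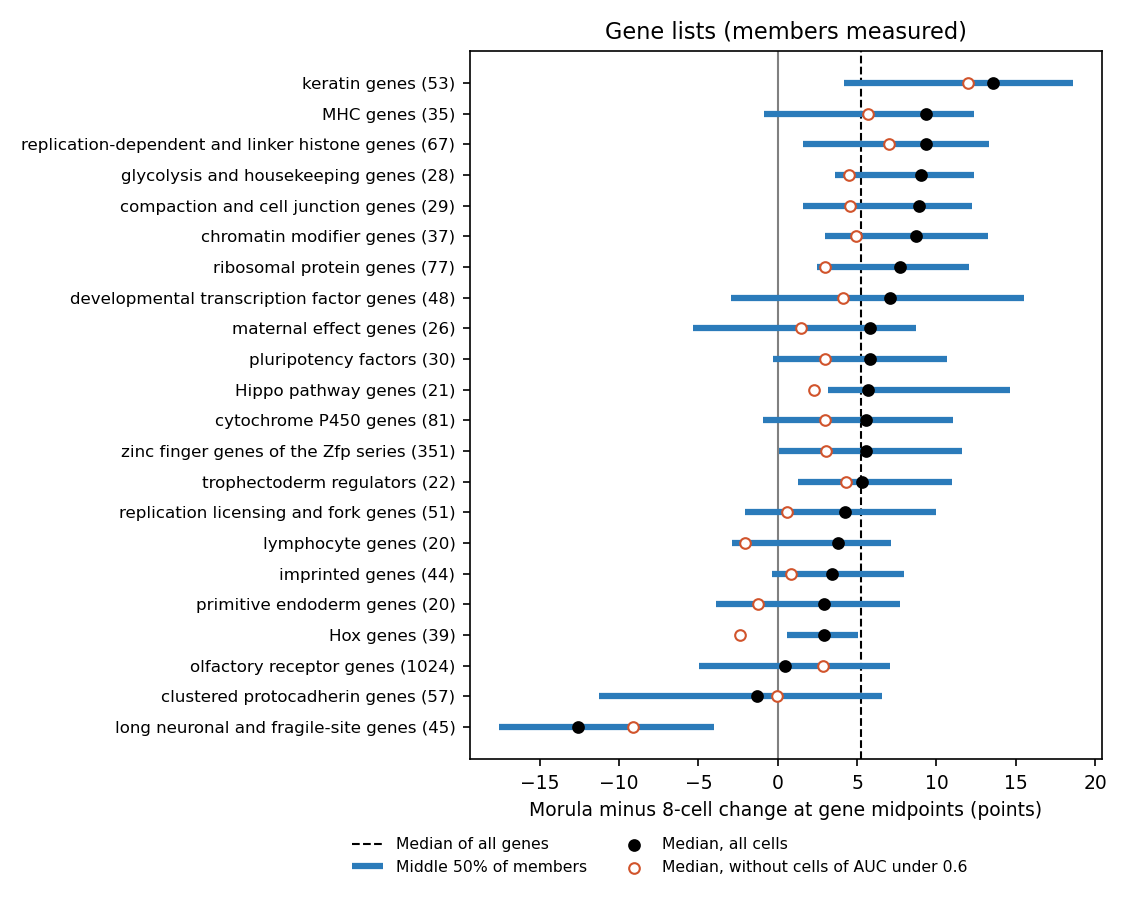
Change at gene midpoints, morula minus 8-cell in percentage points (x axis), for 22 gene lists with the number of measured members. Black dots are medians over all cells, blue bars the middle 50% of members, open circles medians without cells of AUC under 0.6, and the dashed line the median of all genes at 5.26; the long neuronal and fragile-site genes lie lowest at -12.6 and the keratin genes highest at 13.6.

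Long genes of neurons and fragile sites, most of which are adhesion, synapse or channel proteins, were the list farthest towards late. Of 45 measured members 38 had a change below 0 and 7 (15.6%) above it, where 70.3% of all genes were above 0. The median was -12.6 points, or -9.14 without the cells of AUC under 0.6. Among the 45 members 5 (11.1%) were 20 points or more later, against 0.98% of all genes and 3.35% of all bins. The median replicated share of the list was 35% at the 8-cell stage and 20.9% at morula, against 64.4% and 70.5% over all genes. The list thus lay in later bins than most genes. All bins of the gene-poorest class had a mean change of -8.79 points, and how much of the list's change this accounts for was not tested. Over the other settings tried the median change of the list kept its sign, between -7.11 on ranks and -15.3 on median centring.

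Within this list Sorcs3, a sorting receptor gene (chromosome 19, 48206025 to 48805505), was replicated in 33 of 60 8-cell cells (55%, interval 41.6 to 67.9%) and 14 of 44 morula cells (31.8%, interval 18.6 to 47.6%), a change of -23.4 points. Nrg3, a neuregulin gene (chromosome 14, 38365102 to 39473235), was replicated in 25 of 60 and 9 of 44 cells, a change of -21.4 points. Other members were picked from the list after their values were seen. Fhit, at a well-known fragile site, was replicated in 26 of 60 and 10 of 44 cells. Wwox, at another such site, went the other way, with 35 of 60 and 31 of 44 cells and a change of 11.9 points. Cadm2, a cell adhesion gene, was replicated in 12 of 60 8-cell cells and 1 of 42 morula cells.

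Keratin genes, which code for intermediate filaments of epithelia, lay highest. Of 53 measured members in 26 bins 44 (83.0%) had a change above 0, against 70.3% of all genes. Among the 53 members 11 (20.8%) were 20 points or more earlier, against 5.78% of all genes. The median was 13.6 points, or 11.97 without the cells of low AUC; members in 1 bin share their value. Krt81, a hair keratin gene (chromosome 15, 101459061 to 101463765), was replicated in 25 of 60 and 31 of 44 cells, a change of 28.6 points. Krt14, a keratin gene of basal epithelial cells on the other keratin cluster (chromosome 11, 100203162 to 100207510), was replicated in 38 of 60 and 35 of 44 cells, a change of 16.02 points.

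Regulators of the trophectoderm, the first epithelium of the embryo, had a median of 5.29 points, near that of all genes. Of 22 members 18 (81.8%) were above 0, against 70.3% of all genes, and 4 (18.2%) were 20 points or more earlier, against 5.78%. The median had the other sign on ranks, at -1.34. Cdx2, the homeobox factor that marks trophectoderm (chromosome 5, 147300900 to 147307249), was replicated in 39 of 60 8-cell cells (65%, interval 51.6 to 76.9%) and 40 of 44 morula cells (90.9%, interval 78.3 to 97.5%), a change of 25.7 points. Krt7, a keratin of simple epithelia (chromosome 15, 101412403 to 101427806), was replicated in 26 of 60 and 31 of 44 cells, a change of 26.9 points. It lies close to Krt81, so these are not separate regions. Gata3, another trophectoderm factor that was picked after its values were seen, had a change of 1.47 points, with 44 of 60 and 33 of 44 cells.

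Pluripotency factors had a median of 5.79 points, with 21 of 30 members (70%) above 0, against 70.3% of all genes. Tbx3, a T-box factor (chromosome 5, 119670534 to 119684724), was replicated in 30 of 60 and 34 of 44 cells, a change of 27.1 points. Utf1, a chromatin factor of undifferentiated cells (chromosome 7, 139943856 to 139945112), was replicated in 27 of 59 and 30 of 44 cells, a change of 22.2 points. The best-known members, picked for that after their values were seen, did not follow them. Nanog was replicated in 49 of 60 and 30 of 43 cells, Sox2 in 39 of 60 and 24 of 44, and Pou5f1 in 41 of 60 and 30 of 44. Their changes were -12.1, -10.7 and -0.348 points, and Nanog and Sox2 stayed above the genome mean of their group at both stages.

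Genes of compaction and cell junctions had a median of 8.89 points, or 4.58 without the cells of low AUC. Of these genes 22 of 29 (75.9%) were above 0, against 70.3% of all genes. Ctnnb1, which codes for beta-catenin (chromosome 9, 120933400 to 120960507), was replicated in 28 of 60 and 32 of 44 cells, a change of 25.9 points that was 15.97 without those cells. Epcam, an epithelial adhesion gene (chromosome 17, 87635979 to 87651127), was replicated in 33 of 60 and 34 of 44 cells, a change of 22.1 points. The Hippo pathway carries cell position to the trophectoderm genes. Of its 21 members 20 (95.2%) had a change above 0, against 70.3% of all genes, with a median of 5.71 points. Without the cells of low AUC 17 were above 0 and 4 below. Their median was then 2.30 points, as for all genes. Tead1, a DNA-binding partner of Yap (chromosome 7, 112679356 to 112906784), was replicated in 34 of 59 and 37 of 44 cells, a change of 26.3 points. Frmd6, an upstream member (chromosome 12, 70825456 to 70902234), had a change of 17.1 points. The Hippo median lay close to that of all genes, and was 0.217 on ranks.

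Lists of housekeeping, chromatin and ribosomal genes had medians above that of all genes. Glycolysis and housekeeping genes were above 0 in 25 of 28 cases (89.3%) with a median of 9.04 points. Chromatin modifiers were above 0 in 31 of 37 (83.8%) with 8.74, and ribosomal protein genes in 59 of 77 (76.6%) with 7.68. Of all genes 70.3% were above 0. Without the cells of low AUC the medians of these lists were 4.46, 4.90 and 2.95 points, beside 2.30 for all genes. Hk1, a hexokinase gene, was replicated in 42 of 60 and 41 of 44 cells, a change of 22.99 points. Chaf1b, a subunit of the replication-coupled histone chaperone CAF-1, was replicated in 34 of 60 and 35 of 42 cells. It lies in the named window of chromosome 16. Lmna, the A-type lamin gene, was replicated in 34 of 60 and 35 of 44 cells. Rps21 and Rpl21, of the small and the large ribosomal subunit, had changes of 24.7 and 24.3 points.

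Genes of the replication machinery had a median of 4.22 points, which turned sign on ranks, at -1.24. Of these genes 34 of 51 (66.7%) were above 0, against 70.3% of all genes. Prim1, the primase catalytic subunit (chromosome 10, 128015215 to 128030030), was replicated in 35 of 60 and 37 of 44 cells, a change of 25.6 points. Rfc5, a clamp loader subunit, had a change of 24.3 points. Rif1 itself (chromosome 2, 52072815 to 52126769) was replicated in 40 of 60 8-cell cells and 28 of 44 morula cells. Its change of -3.23 points is small beside the intervals of both shares, 53.3 to 78.3% and 47.8 to 77.6%.

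Developmental transcription factors varied most widely among the hand-picked lists. Of 48 members 35 (72.9%) were above 0, against 70.3% of all genes. The median was 7.08 points and the SD over members 12.5 points. Sox1, an early neural factor (chromosome 8, 12395519 to 12399555), was replicated in 29 of 60 and 33 of 44 cells, a change of 26.5 points. At the other end, and picked for it, Dlx5, a homeobox gene of limb and forebrain, was replicated in 32 of 60 and 12 of 43 cells, a change of -25.6 points. Hox genes, 39 genes in 13 bins, had a median of 2.90 points, which turned to -2.35 without the cells of low AUC, to -6.68 on ranks and to -1.10 and -2.91 with cells limited to 20 to 80% replicated or matched. Hoxb13 and Hoxd10 had changes of 14.3 and -13.8 points.

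Maternal effect genes had a median of 5.79 points and 18 of 26 members (69.2%) above 0, against 70.3% of all genes. Nlrp14, an oocyte gene (chromosome 7, 107113455 to 107198103), was replicated in 19 of 59 and 26 of 44 cells, a change of 26.7 points. Dnmt1, the maintenance DNA methyltransferase, had a change of 15.7 points from 45 of 60 to 40 of 44 cells. Primitive endoderm genes had 11 of 20 members (55%) above 0, against 70.3% of all genes. Their median of 2.91 points turned to -1.27 without the cells of low AUC and to -4.26 on ranks. In that list Rspo3, a Wnt agonist, had a change of -19.0 points and Fgfr2, a growth factor receptor, one of 14.9. Imprinted genes had a median of 3.39 points with 33 of 44 (75%) above 0, against 70.3% of all genes. None was past 20 points, against 5.78% of all genes in the earlier and 0.98% in the later direction. Copg2 and Blcap, each in an imprinted cluster, had changes of 17.9 and 17.2 points.

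Clustered families showed their members' shared bins. Replication-dependent and linker histone genes, 67 genes in 17 bins, had a median of 9.35 points, and MHC genes, 35 genes in 28 bins, also 9.35 points. H1f0 and H1f6 had changes of 17.1 and 16.3 points, and H2-Aa and H2-K1 of 16.9 and 14.8 points. Olfactory receptor genes, the largest family with 1024 members in 538 bins, had a median of 0.485 points that turned to -2.20 on median centring, with a median share of 21.7% at the 8-cell stage and 22.7% at morula. They were thus late at both stages, although Olfr412 and Olfr522 had changes of 25.3 and 24.4 points. Clustered protocadherin genes, 57 in 11 bins, had a median of -1.32 points that turned to 1.62 on ranks, and Pcdha12 had a change of -19.6 points.

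Zinc finger genes of the Zfp series had a median of 5.56 points over 351 members, with 264 (75.2%) above 0, against 70.3% of all genes. Zfp263 (chromosome 16, 3744099 to 3750790) lay in the bin with the greatest change towards early of all used bins. It was replicated in 22 of 60 8-cell cells (36.7%, interval 24.6 to 50.1%) and in 37 of 42 morula cells (88.1%, interval 74.4 to 96.0%), a change of 51.2 points, and of 36.6 points under siRif1. Zfp787 (chromosome 7, 6131489 to 6159380) was replicated in 22 of 59 and 34 of 44 cells, a change of 39.8 points. Cytochrome P450 genes had a median of 5.56 points with 55 of 81 (67.9%) above 0, against 70.3% of all genes. Cyp8b1, a sterol hydroxylase of bile acid synthesis, had a change of 32.7 points and lies in the named window of chromosome 9. Cyp2t4 had a change of 22.8 points. Lymphocyte genes, among them antigen receptor subunits and B and T cell factors spread over many chromosomes, had 13 of 20 members (65%) above 0, against 70.3%. Their median of 3.82 points turned to -2.05 without the cells of low AUC and to -2.08 on ranks. Ebf1, a B cell factor (chromosome 11, 44618100 to 45008096), was replicated in 38 of 60 and 16 of 44 cells, a change of -27.2 points, and Ms4a1, which codes for CD20 (chromosome 19, 11249679 to 11266149), in 42 of 60 and 19 of 44 cells, a change of -27.0 points.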

How the data were processed

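Replication states of single blastomeres were analysed in 60 control 8-cell and 44 control morula cells; the control 4-cell group and the siRif1 groups served for ranking and side-by-side values. Per the file headers, the deposited tables hold per cell a state (0, 1 or NA) in bins of 50 kb, with no normalization stated. Build GRCm38 and the tools R 4.2.3, bedtools, Picard, SAMtools and Bowtie2 2.5.1 are named, without roles, in the submitters' processing notes. How the authors called states and chose cells was not given in the sources used here. No run of one state away from chromosome ends was shorter than 250 kb (5 bins), so states had been smoothed or segmented before deposit. State 1 was read as replicated because bins with a gene midpoint had the higher share.

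Shares, centred changes, classes, AUC and pair correlations were computed with Python 3.11.15, numpy 2.4.6, pandas 2.3.3 and scipy 1.17.1, drawn with matplotlib 3.10.9, and tested on simulated data. Genes came from a RefSeq table of GRCm38.p6. Gene density counted gene midpoints over a bin and 10 bins on each side. Named windows were the 6 highest and 6 lowest of mean change at least 2 Mb apart; named genes were the 2 members with the largest absolute change in different windows of each list with 80% or more of at least 8 genes measured, and Rif1. Some genes it selects are left out of the text. Lists of 2-cell, vomeronasal, serpin and Ceacam/Psg genes fell short of this and are not described. Members and lists were chosen with earlier results of these data known. The AUC, its limits and the gene density classes were added after seeing the data. The AUC limit of 0.6 uses the states of the cells themselves, so values without those cells are a description. Alternatives were other choices of cells, bins, centring, scale, classes, thresholds, windows and gene positions.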

Additional observations from a re-analysis of the deposited data

How the results depend on the processing

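No paired analysis was possible because the numbers in the cell titles only name cells, no embryo or litter links the stages, and no test was made. Without cells of AUC under 0.6, 0.55 and 0.65, the difference in SD over bins was 2.94, 4.18 and 2.73 points, the widening between the 4-cell classes 1.80, 4.69 and 1.17 points, the difference in pair correlation 0.0571, 0.0639 and 0.0560, and the widening by gene density 8.15, 10.9 and 7.61 points. With matched cells the SD difference was 4.27 points. Classes from the siRif1 8-cell and morula cells gave a widening of 11.7 points. Classes from the compared groups themselves gave 15.2. They were ranked on the compared values, which favours a wider distance in the group of larger SD, so 15.2 is no support. Percentile ranks gave -4.90, and 4.92 for gene density. Pairs between 40 and 60% replicated differed by 0.234. Bins at least 30 points earlier and later numbered 79 and 185 with median centring and 731 and 412 on ranks; later bins numbered 116 in cells of 20 to 80%, 105 in matched cells and 22 at the same SD. At 20 points the counts were 1732 and 1547, and at 40 points 8 and 0. Of 22 list medians 7 turned sign in 12 of 154 values: Hox genes (-1.10 in cells of 20 to 80%, -2.91 matched, -6.68 on ranks, -2.35 without AUC under 0.6), olfactory receptors (-2.20, median centring), trophectoderm (-1.34), replication (-1.24) and protocadherin genes (1.62), all on ranks, primitive endoderm (-4.26 on ranks, -1.27 without AUC under 0.6) and lymphocyte genes (-2.08 and -2.05, likewise). None of the 12 named windows or 44 genes picked by the naming rule turned sign in the alternatives run. All but Rif1 were picked for large changes in these same cells, so a kept sign is no support. The value moved by the SD over bins or more in 20 of 84 window values. It moved by the counting error or more in 10 of 308 gene values. The cause of these differences was not tested. Spread and pair correlation have no value on ranks, nor pairs on median centring. With 60 and 44 cells, a share can only move in steps of 1 measured cell, and read depth is unknown.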
